A study of Bos taurus with 18 samples.

Results

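Fatty acid oxidation in mitochondria and peroxisomes was followed here through 36 genes of the pathway, chosen by gene symbol, in endometrial samples from 6 Holstein cows. Of these symbols, 34 had a row in the table of counts, and ETFB and AMACR were not analysed here. HADH stood on 2 rows, so the members filled 35 of the 38001 rows, and all 35 were among the 19638 rows tested after removal of low counts. The better covered HADH row is called HADH below, and the second HADH row had 0.687 to 1.80 CPM in every library (CPM is the count of a row scaled to a common library size, here with TMM factors).

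Each cow gave 3 samples taken with a cytobrush from the uterine horn next to the ovary bearing the corpus luteum. Animals A, B and C formed the 17-OHPC/P4 arm: on day 4 of a synchronised cycle they were injected with 100 mg 17α-hydroxyprogesterone caproate (17-OHPC, a long-acting synthetic progestin) and 10 mg progesterone (P4), and they were sampled on day 7 (treated day 7). Animals D, E and F formed the P4 arm, in which 100 mg progesterone was injected on day 4 and the sample was again taken on day 7. The same cows had been sampled on day 7 (control day 7) and on day 4 (control day 4) of an earlier synchronised cycle without injection. All cows were kept on 1 commercial farm and went through Ovsynch, a hormone programme that sets the day of ovulation, before both cycles. The treated cycle always followed the untreated one and no vehicle group was analysed here, so treatment, injection and cycle order cannot be told apart. Control day 7 was sampled after the day 4 sampling of the same cycle, and no day 4 sample of the treated cycle was analysed here. An effect of that earlier sampling cannot be told apart from the day or the treatment. The 6 groups held 3 animals each, and the letter names the same cow throughout.

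Fatty acids enter mitochondria as carnitine esters and are shortened there in a repeated cycle of dehydrogenation, hydration, a second dehydrogenation and thiolytic cleavage, which passes electrons to the respiratory chain. Peroxisomes run a parallel cycle on very long, branched and dicarboxylic chains and start it with oxidases that make hydrogen peroxide. They hand the shortened chains over as carnitine esters or as free acids. Auxiliary isomerases and reductases in both organelles move or remove double bonds so that unsaturated chains can enter the cycle. In the ruminant endometrium, progesterone of the early luteal phase prepares the epithelium that secretes lipids and other nutrients for the embryo.

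The libraries held 29347255 to 40733544 counts. Markers of luminal and glandular epithelium were found for 10 of 10 genes and summed to 2560 to 5390 CPM in every library, and none of the 10 was at 0 in all libraries of a group. Animal C stood apart from the other cows in red blood cell markers, which summed to 359, 4170 and 2380 CPM on treated day 7, control day 7 and control day 4, against 0.929 to 5.64 CPM in the 15 libraries of the other animals. Its stromal markers summed to 3150, 4680 and 6580 CPM at these times, against 122 to 3460 CPM in the other animals, where control day 7 of animal D was the highest. The control day 7 library of animal F had the lowest stromal sum, 122 CPM. In bulk RNA, fewer cells of a type and less RNA per cell cannot be told apart.

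Between control day 4 and control day 7, 8 of the 35 member rows changed over both arms together (22.9%, against 10.6% of all rows tested; edgeR's quasi-likelihood test, adjusted p under 0.05). Higher on day 7 were ECI2, CROT, CPT1A, DECR2, PHYH, ACOT8 and ACAA1, which is 7 of 35 rows or 20.0%, against 6.27% of all rows. ACOX3 was the 1 member that was lower on day 7 (2.86%, against 4.28% of all rows). Apart from ECI2 and CPT1A, the members that changed encode enzymes known as peroxisomal. The median log2 change of the members was 0.18, and that of all rows tested was -0.05. There were 13 member rows that were higher on control day 7 than on control day 4 in all 6 cows (37.1%, against 10.5% of all rows), and none was lower in all 6 (0%, against 9.03%).

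**Figure D1:**
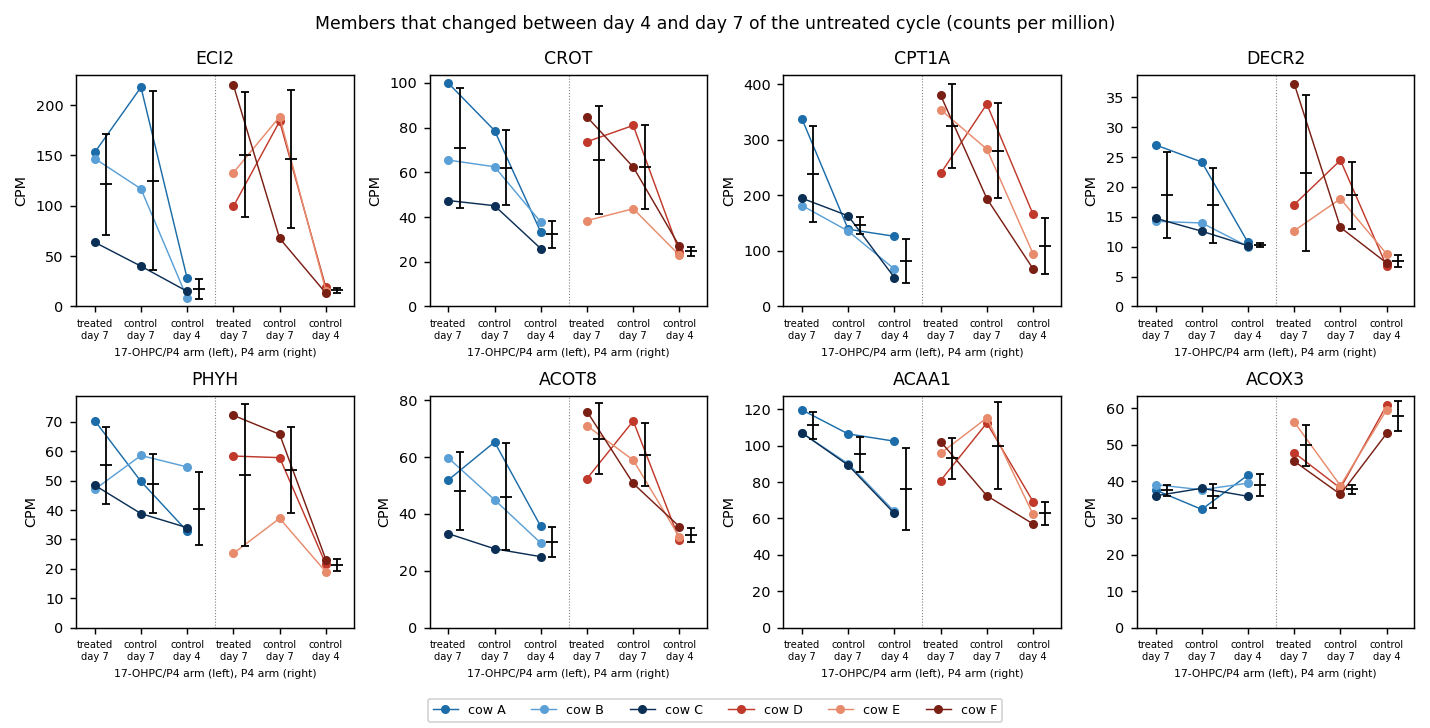
CPM of the 8 members that changed between control day 7 and control day 4, 1 point per library, with the 17-OHPC/P4 arm on the left of each panel and the P4 arm on the right. Within an arm the groups run treated day 7, control day 7, control day 4, lines join the samples of 1 cow, and black bars give the mean ± SD of 3 animals. ECI2 stood at 40.0 to 218 CPM on control day 7 and at 8.25 to 27.8 CPM on control day 4.

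ECI2 (enoyl-CoA delta isomerase 2, ENSBTAG00000015178), which shifts double bonds of unsaturated chains and is found in mitochondria and in peroxisomes, had the largest fold change among the members. Animals A, B and C had 153, 147 and 63.7 CPM on treated day 7, 218, 117 and 40.0 CPM on control day 7 and 27.8, 8.25 and 15.0 CPM on control day 4. Animals D, E and F had 99.4, 133 and 219.7 CPM on treated day 7, 184, 188 and 67.6 CPM on control day 7 and 18.9, 15.7 and 13.2 CPM on control day 4. All day 7 libraries, treated or not, lay above all day 4 libraries, with animal C the lowest on both day 7 samples. The control day 7 mean was 136 ± 72.1 CPM, against 16.5 ± 6.54 CPM on control day 4 (SD, n = 6 each). The log2 fold change was 3.04 ± 0.44 (SE), with an adjusted p of 0.00176 and a 95% interval of 2.09 to 3.98. The call held without any 1 of the 12 libraries, with log2 fold changes of 2.70 to 3.31.

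DECR2 (ENSBTAG00000026429), the peroxisomal 2,4-dienoyl-CoA reductase, was the other auxiliary enzyme that rose. In animals A, B and C it had 27.0, 14.2 and 14.8 CPM on treated day 7, 24.2, 14 and 12.6 CPM on control day 7 and 10.7, 10.0 and 10.2 CPM on control day 4. Animals D, E and F of the P4 arm had 17.0, 12.7 and 37.3 CPM on treated day 7, 24.5, 18.0 and 13.2 CPM on control day 7 and 6.72, 8.77 and 7.27 CPM on control day 4. Control day 7 and control day 4 did not overlap, and the treated library of animal F was the highest of all. DECR2 was 1.0 ± 0.28 log2 units (SE) higher on control day 7 (adjusted p = 0.0326). The mitochondrial counterparts ECI1 and DECR1 did not pass the test, with log2 differences of 0.27 ± 0.18 and 0.33 ± 0.15 (SE); DECR1 was higher on control day 7 in 6 of 6 cows.

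Among the 5 genes of the mitochondrial carnitine shuttle, only CPT1A passed in the fit without animals as a term. CPT1A (ENSBTAG00000021999), the carnitine palmitoyltransferase of the outer mitochondrial membrane that limits entry of long chains, had 338, 182 and 195 CPM in animals A, B and C on treated day 7, 139, 136 and 163 CPM on control day 7 and 126, 67.3 and 52.0 CPM on control day 4. The P4 arm, animals D, E and F, had 239, 354 and 380.1 CPM on treated day 7, 364, 283 and 194 CPM on control day 7 and 166, 94.8 and 67.7 CPM on control day 4. Every cow was higher on control day 7 than on its own control day 4, animal A by little, and the day 4 level of animal D overlapped the day 7 range. The mean was 213 ± 91.7 CPM on control day 7 and 95.6 ± 43.2 CPM on control day 4 (SD, n = 6 each), a log2 difference of 1.10 ± 0.27 (SE; adjusted p = 0.0213).

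CPT1B, the muscle-type form of the same enzyme, and CRAT, the carnitine acetyltransferase that acts on short chains, passed once each cow was compared with itself. CPT1B (ENSBTAG00000016048) had 99.5, 67.8 and 57.8 CPM on control day 7 in animals A, B and C, against 57.7, 45.5 and 31.5 CPM on control day 4, and 175, 165 and 87.4 CPM on control day 7 in animals D, E and F, against 85.5, 99.9 and 80.5 CPM on control day 4. CRAT (ENSBTAG00000001932) had 53.3, 69.2 and 72.4 CPM on control day 7 in animals A, B and C, against 37.2, 59.1 and 64.2 CPM on control day 4, and 43.0, 56.4 and 60.8 CPM on control day 7 in animals D, E and F, against 33.9, 45.5 and 38.9 CPM on control day 4. Both genes were higher on control day 7 in 6 of 6 cows. In the 17-OHPC/P4 arm CPT1B nearly tied between the days, at 57.8 CPM in animal C on control day 7 and 57.7 CPM in animal A on control day 4. CPT1B in the P4 arm and CRAT in both arms overlapped between the days. Without the animal block the adjusted p was 0.0843 for CPT1B and 0.163 for CRAT; with the replicate block it was 0.0376 for CPT1B, at a log2 change of 0.72, and 0.0153 for CRAT, at 0.37. CPT2, the inner membrane transferase, differed by -0.09 ± 0.16 (SE).

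SLC25A20, the carnitine-acylcarnitine translocase of the inner membrane, was singled out after its values were seen. It had 1.28, 7.13 and 9.64 CPM in animals A, B and C on treated day 7, 3.22, 13.6 and 12.2 CPM on control day 7 and 10.2, 22.5 and 17.0 CPM on control day 4. Cows D, E and F had 11, 7.96 and 3.77 CPM on treated day 7, 6.59, 5.68 and 17.6 CPM on control day 7 and 12.8, 11 and 12.8 CPM on control day 4. It was lower on control day 7 than on control day 4 in every cow but F, and the difference of -0.53 ± 0.48 log2 units (SE) did not pass (adjusted p = 0.522). The summed markers of ciliated cells were also lower on control day 7 in every cow but F. Of the 10 ciliated markers, 9 had a row and CAPS was at 0 in every library; their sum in animals A, B and C was 57.4, 383 and 194 CPM on treated day 7, 156, 530 and 186 CPM on control day 7 and 189, 1140 and 490 CPM on control day 4. In animals D, E and F the sum was 363, 154 and 88.8 CPM on treated day 7, 105, 61.4 and 496 CPM on control day 7 and 157, 176 and 117 CPM on control day 4. The part of ciliated cells in the level of SLC25A20 was not tested.

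Of the 9 measured genes of peroxisomal oxidation, 4 rose and 1 fell between control day 4 and control day 7 (44.4% and 11.1%, against 6.27% and 4.28% of all rows). CROT (ENSBTAG00000021535), the carnitine octanoyltransferase that readies shortened chains for export from the peroxisome, had 99.9, 65.5 and 47.4 CPM in animals A, B and C on treated day 7, 78.7, 62.5 and 45.1 CPM on control day 7 and 33.3, 37.8 and 25.9 CPM on control day 4. In animals D, E and F it had 73.7, 38.4 and 84.8 CPM on treated day 7, 81.0, 43.7 and 62.4 CPM on control day 7 and 24.4, 22.9 and 26.9 CPM on control day 4. All control day 7 libraries lay above all control day 4 libraries, and so did all treated libraries. The log2 difference of control day 7 over control day 4 was 1.14 ± 0.23 (SE; adjusted p = 0.00865), and without any 1 of the 12 libraries it was 1.04 to 1.24 with the call kept.

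ACOT8 (ENSBTAG00000020371), a peroxisomal thioesterase that frees acids from their CoA esters, had 52.0, 59.7 and 33.0 CPM in animals A, B and C on treated day 7, 65.3, 45.0 and 27.7 CPM on control day 7 and 35.6, 29.7 and 25 CPM on control day 4. Animals D, E and F of the P4 arm had 52.5, 71.0 and 76.1 CPM on treated day 7, 72.7, 58.9 and 50.7 CPM on control day 7 and 30.9, 31.8 and 35.5 CPM on control day 4. Each cow was higher on control day 7, animal C by the least, and its day 7 value lay below the day 4 values of the other cows. ACOT8 was 0.75 ± 0.20 log2 units (SE) higher on control day 7 (adjusted p = 0.0283). In the RefSeq table its gene overlaps SNX21, and that of ECI2 overlaps C23H6orf201; as the strand setting of the counting is not given in the sources used here, reads of such neighbours cannot be told apart.

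PHYH (ENSBTAG00000007700), the hydroxylase that starts the α-oxidation of phytanic acid, a branched acid derived from chlorophyll and common in ruminant fat, had 70.5, 47.1 and 48.5 CPM in animals A, B and C on treated day 7, 49.8, 58.6 and 38.8 CPM on control day 7 and 32.8, 54.7 and 34.0 CPM on control day 4. The P4 arm, animals D, E and F, had 58.4, 25.3 and 72.3 CPM on treated day 7, 57.9, 37.2 and 65.8 CPM on control day 7 and 21.6, 19.0 and 23.2 CPM on control day 4. The P4 arm was well separated by day and the 17-OHPC/P4 arm was not, with animal B already at 54.7 CPM on control day 4. Over both arms PHYH was 0.81 ± 0.24 log2 units (SE) higher on control day 7 (adjusted p = 0.0444). ACAA1 (ENSBTAG00000018283), the peroxisomal thiolase, had 119.7, 107 and 107 CPM in animals A, B and C on treated day 7, 107, 90.1 and 89.3 CPM on control day 7 and 103, 63.9 and 62.8 CPM on control day 4. Cows D, E and F had 80.8, 95.9 and 102 CPM on treated day 7, 113, 115 and 72.5 CPM on control day 7 and 69.3, 62.2 and 57.0 CPM on control day 4. Its day ranges overlapped through the high day 4 value of animal A, although each cow was higher on its own control day 7. The log2 difference was 0.50 ± 0.15 (SE; adjusted p = 0.0449).

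ACOX3 (ENSBTAG00000004893), a peroxisomal acyl-CoA oxidase known for branched chains, went the other way. In animals D, E and F it had 47.9, 56.3 and 45.6 CPM on treated day 7, 38.2, 38.9 and 36.5 CPM on control day 7 and 60.9, 59.6 and 53.2 CPM on control day 4. In animals A, B and C it had 37.7, 39.1 and 36.1 CPM on treated day 7, 32.4, 37.7 and 38.1 CPM on control day 7 and 41.8, 39.6 and 35.9 CPM on control day 4. In the P4 arm control day 7 lay below both other groups without overlap, whereas in the 17-OHPC/P4 arm the groups overlapped and animal C was slightly higher on control day 7. Over both arms ACOX3 was -0.36 ± 0.086 log2 units (SE) on control day 7 relative to control day 4 (adjusted p = 0.0166), lower in 5 of 6 cows. Without a filter on low counts the adjusted p was 0.0870.

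The remaining genes of the peroxisomal group did not pass. ABCD3, the transporter that carries acyl-CoA into the peroxisome, differed by 0.48 ± 0.23 log2 units (SE) and was higher on control day 7 in 6 of 6 cows. ACOX2, the oxidase of bile acid intermediates and branched chains, differed by -0.49 ± 0.41 (SE), with 8.49 to 57.4 CPM on control day 7 and 17.3 to 69.0 CPM on control day 4. EHHADH, the bifunctional hydratase and dehydrogenase, and SCP2, which holds a thiolase, differed by 0.07 ± 0.32 and -0.03 ± 0.17 (SE).

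**Figure D2:**
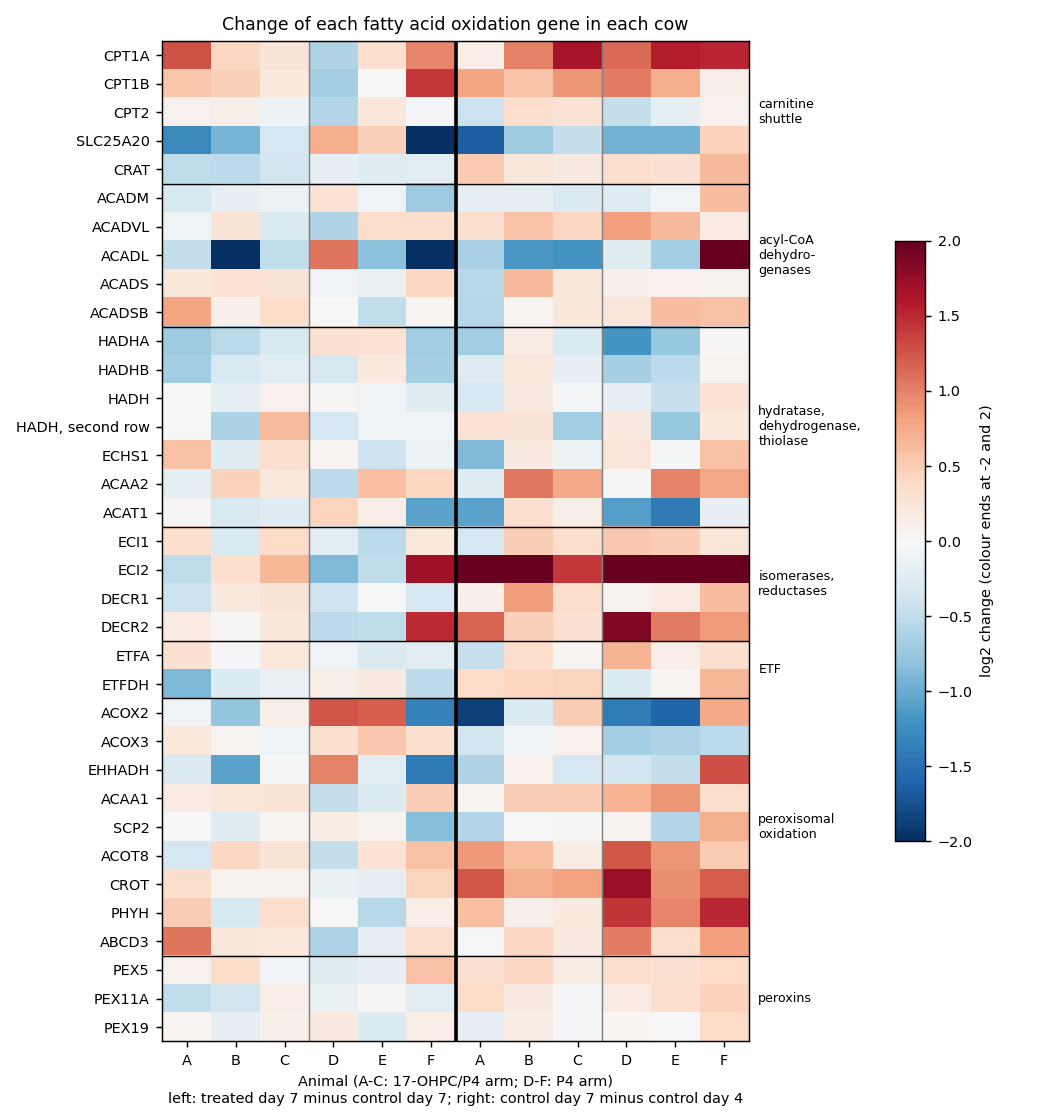
Log2 change of each member row in each cow, treated day 7 minus control day 7 in the left block and control day 7 minus control day 4 in the right block, with animals A to C (17-OHPC/P4 arm) and D to F (P4 arm) as columns and members grouped by role. Colours end at -2 and 2; ECI2 and CROT are red in all 6 cows of the right block, while the left block has 1 row of a single colour, CRAT.

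Several of the calls were close to the threshold. CPT1A lost its call when any 1 of control day 4 of C, E and F or control day 7 of D was left out (adjusted p 0.0523 to 0.0614). ACOX3 lost its call without the control day 7 library of A, B or D (0.0505 to 0.0626). ACOT8 and DECR2 lost theirs without any 1 of 8 libraries, the control day 7 libraries of A, D and E and the control day 4 libraries of B, C, D, E and F (0.0507 to 0.0871 for ACOT8 and 0.0585 to 0.102 for DECR2). PHYH lost its call without any 1 of 9 libraries, namely control day 7 of A, B, D and F and control day 4 of A, C, D, E and F (0.0659 to 0.105). ACAA1 lost its call without any 1 of 10 libraries, all but control day 4 of A and control day 7 of F (0.0503 to 0.120). The fold changes kept their sign in all of these fits. Without all libraries of animal C, ECI2, CROT, ACOT8 and ACOX3 were called, 4 members in all. The share of all rows called in that fit is not given here.

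The mitochondrial enzymes of the cycle itself showed no call in the fit without animals as a term. Of the 7 rows for the hydratase, dehydrogenase and thiolase steps, 6 were lower and 1 was higher on control day 7, with a median log2 difference of -0.09. HADHA (ENSBTAG00000015038) and HADHB (ENSBTAG00000010083) encode both subunits of the trifunctional protein, which carries out the last steps on long chains. HADHA had 54.5, 84.8 and 89.6 CPM in animals A, B and C on treated day 7, 89.0, 123 and 112 CPM on control day 7 and 145, 111 and 138 CPM on control day 4. Animals D, E and F of the P4 arm had 89.8, 103 and 76.6 CPM on treated day 7, 72.6, 83.9 and 124 CPM on control day 7 and 167, 142 and 121 CPM on control day 4. It was lower on control day 7 in animals A, C, D and E and not in B and F, and all treated libraries lay below all day 4 libraries. The day difference was -0.45 ± 0.17 log2 units (SE; adjusted p = 0.0962). HADHB differed by -0.23 ± 0.14 (SE; adjusted p = 0.322).

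ACAT1 (ENSBTAG00000012885), the mitochondrial acetoacetyl-CoA thiolase that also acts on ketone bodies, had 76.2, 74.5 and 73.4 CPM in animals A, B and C on treated day 7, 75.2, 92.0 and 87.0 CPM on control day 7 and 159, 72.6 and 79.9 CPM on control day 4. The P4 arm, animals D, E and F, had 57.3, 50.6 and 44.0 CPM on treated day 7, 41.9, 46.3 and 92.8 CPM on control day 7 and 89.6, 123 and 104 CPM on control day 4. The day 4 levels of animals A, D and E were well above their day 7 levels, those of B and C were below, and that of F was slightly above. The difference of -0.55 ± 0.22 log2 units (SE) did not pass (adjusted p = 0.116). The control day 7 library of animal F carried the highest ciliated and the lowest stromal marker sum of its group. Without it, HADHA had a log2 difference of -0.57 (adjusted p = 0.0268 by edgeR) and ACAT1 one of -0.78 (adjusted p = 0.0149). In that fit 11 members were called, and the share of all rows called is not given here. The part of the cell mixture of that library was not tested. ACAA2, the mitochondrial thiolase of medium chains, differed by 0.46 ± 0.28 (SE), and ECHS1, the short-chain hydratase, by -0.02 ± 0.17 (SE).

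Among the 5 acyl-CoA dehydrogenases, ACADVL, which starts the cycle on very long chains, had the clearest day difference and was named after its values were seen. It had 191, 164 and 166 CPM on control day 7 in animals A, B and C, against 153, 110.4 and 125 CPM on control day 4. Cows D, E and F had 229, 233 and 151 CPM on control day 7, against 129, 149 and 135 CPM on control day 4. Each cow was higher on control day 7, F and A by the least. The log2 difference was 0.50 ± 0.17 (SE) with an adjusted p of 0.0752; with the replicate block the adjusted p was 0.0473 at a log2 difference of 0.49. The medium, short and branched-chain dehydrogenases ACADM, ACADS and ACADSB differed by -0.05, 0.04 and 0.15 log2 units.

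ACADL, the long-chain dehydrogenase, had the lowest median CPM of all members. It had 0.512, 0.303 and 1.70 CPM in animals A, B and C on treated day 7, 0.734, 2.21 and 2.41 CPM on control day 7 and 1.18, 5.01 and 5.61 CPM on control day 4. In animals D, E and F it had 1.41, 0.291 and 0.618 CPM on treated day 7, 0.645, 0.554 and 5.13 CPM on control day 7 and 0.775, 0.921 and 0.584 CPM on control day 4. It was lower on control day 7 in every cow but F, whose control day 7 library stood far above its other samples, as its ciliated marker sum did. The day difference was 0.17 ± 0.63 log2 units (SE). The part of ciliated cells was not tested.

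**Figure D3:**
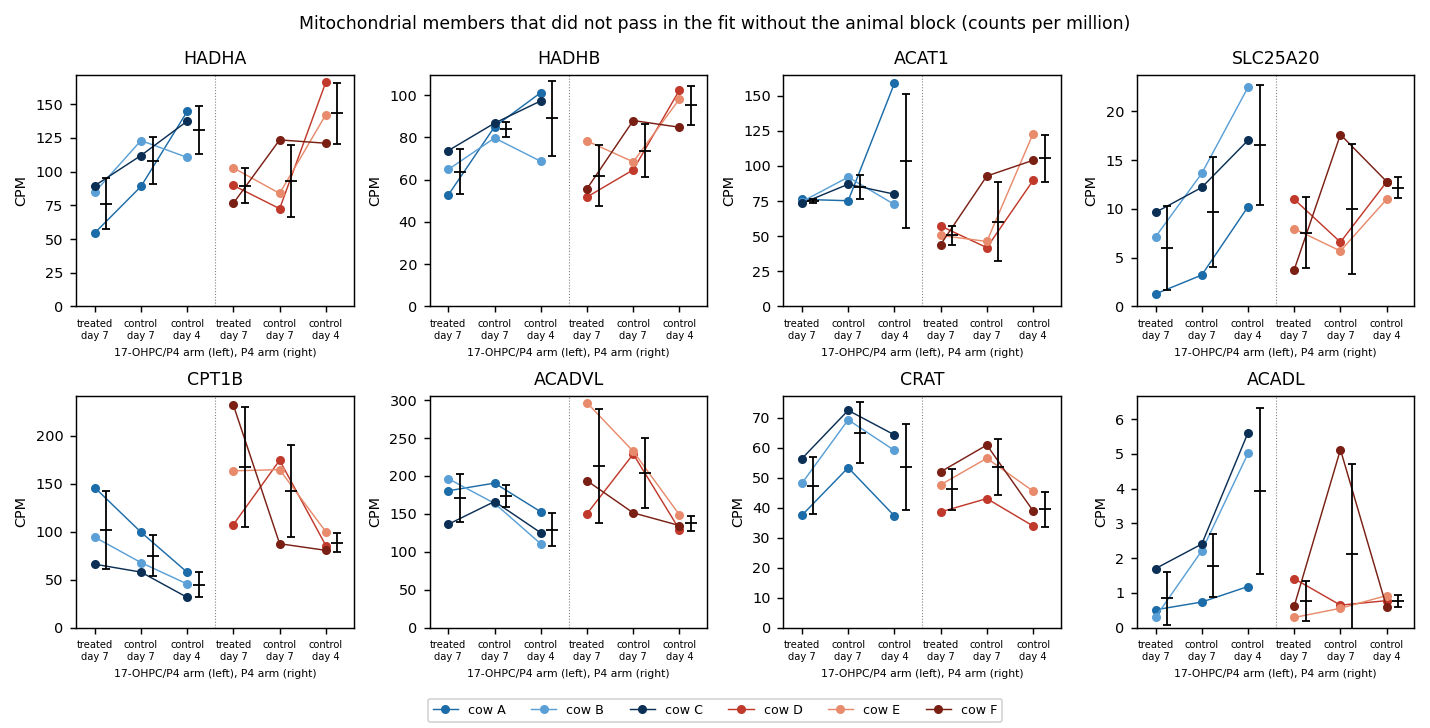
CPM of 8 mitochondrial members that did not pass the day test without animals as a term, 1 point per library, drawn like the plot of the members that changed. In ACADL and SLC25A20 the control day 7 library of animal F stands at 5.13 and 17.6 CPM, above the other animals of its arm on that day.

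The electron transfer flavoprotein passes electrons from the dehydrogenases to the respiratory chain. Its α subunit gene ETFA and ETFDH, the gene of the oxidoreductase that receives the electrons, differed by 0.18 ± 0.14 and 0.30 ± 0.14 log2 units (SE) between control day 7 and control day 4, and neither passed. The peroxins did not pass either. PEX5, the receptor that brings enzymes into the peroxisome, was higher on control day 7 in 6 of 6 cows with a log2 difference of 0.32 ± 0.16 (SE). PEX11A, known for peroxisome division, and PEX19, the chaperone of peroxisomal membrane proteins, differed by 0.26 ± 0.14 and 0.06 ± 0.13 (SE).

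The cows differed in how widely the members moved. Of the 35 member rows, 33 were higher on control day 7 than on control day 4 in animal F and 29 in animal B, where 50.6% and 50% of all rows tested were higher. In animals C, D and E, 24, 22 and 20 member rows were higher, where 47.3%, 46.8% and 44.4% of all rows were. In animal A, 16 member rows were higher, against 47.1% of all rows. Other measures moved with the day as well: of 15 proliferation genes 8 fell (53.3%, against 4.28% of all rows), and their sum in animals D, E and F was 464, 426 and 453 CPM on control day 7, against 777, 1690 and 1000 CPM on control day 4. In animals A, B and C that sum was 458, 395 and 508 CPM on control day 7, against 1150, 240 and 452 CPM on control day 4, so that animals B and C did not share the lower day 7 sum. Of 11 rows of T and NK cell markers 2 fell (18.2%), and the sum was 48.0 to 111 CPM on control day 7, against 79.1 to 205 CPM on control day 4. Their part in the changes of the members was not tested.

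Within the 17-OHPC/P4 arm alone, no member passed between control day 7 and control day 4 by edgeR (0 of 35, against 0.0407% of all rows). At an unadjusted p under 0.05 there were 5 members (14.3%, against 9.62% of all rows), and DESeq2 called 1, ECI2. ECI2 had a log2 difference of 2.88 ± 0.62 (SE; adjusted p = 0.126) and CROT one of 0.94 ± 0.33 (SE; adjusted p = 0.334). ECI2 passed without the control day 4 library of animal A (adjusted p = 0.0476) and without the control day 7 library of animal C (0.0411). Members higher in each of the 3 cows numbered 14 (40.0%, against 19.9% of all rows), and those lower in each cow numbered 3 (8.57%, against 22.5%).

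Within the P4 arm, 5 members changed between control day 7 and control day 4 (14.3%, against 8.65% of all rows), of which 4 were higher (11.4%, against 4.64%) and 1 was lower (2.86%, against 4.00%). ECI2 was 3.20 ± 0.63 log2 units (SE) higher (adjusted p = 0.0109), CROT 1.33 ± 0.33 (adjusted p = 0.0256), PHYH 1.34 ± 0.34 (adjusted p = 0.0285) and CPT1A 1.36 ± 0.39 (adjusted p = 0.0441). ACOX3 was lower by the same test, at -0.61 ± 0.12 log2 units (SE; adjusted p = 0.0113). With the replicate block 9 members were called, the added ones being ACAA1, ACOT8, CRAT and DECR2. Higher in each of the 3 cows were 18 member rows (51.4%, against 23.6% of all rows), and 2 were lower in each cow (5.71%, against 27.3%). The calls rested on single libraries in part: none was left without the control day 4 library of animal E, 1 without control day 4 of F or control day 7 of D, and 3 without control day 4 of D. Without control day 7 of F, 8 members were called. For the replicate block and the fits without 1 library, the share of all rows called is not given here. These counts are therefore no result about the members alone.

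Whether the day change itself differed between the arms was tested as an interaction, and no member passed by edgeR or DESeq2 (0 of 35 and 0% of all rows by edgeR). At an unadjusted p under 0.05 there were 2 members (5.71%, against 7.71% of all rows). ACOX3 had a difference of 0.50 ± 0.17 log2 units (SE), 17-OHPC/P4 arm minus P4 arm, with an unadjusted p of 0.0114 and an adjusted p of 0.558 from edgeR. PHYH had one of -1.06 ± 0.48 (SE; adjusted p = 0.625).

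Between treated and control day 7, no member passed by edgeR in both arms together, in the 17-OHPC/P4 arm or in the P4 arm (0 of 35 in each, where 0% of all rows passed). This fit had no animal term, so these tests and the intervals below did not compare each cow with itself. DESeq2 called 0 members in each of the 3 comparisons, and the fit with the replicate block, which pairs the cows, called none. At an unadjusted p under 0.05 there were 2, 2 and 1 members (5.71%, 5.71% and 2.86%), against 4.33%, 1.89% and 3.03% of all rows. The median log2 difference of the members over both arms was -0.00, and that of all rows was -0.01. The 8 members that changed between the control days differed between treated and control day 7 by -0.00 log2 units for ECI2, 0.13 for CROT, 0.46 for CPT1A, 0.20 for DECR2, 0.06 for PHYH, 0.10 for ACOT8, 0.06 for ACAA1 and 0.23 for ACOX3. The 95% interval was -0.87 to 0.87 for ECI2 and -0.36 to 0.63 for CROT.

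**Figure D4:**
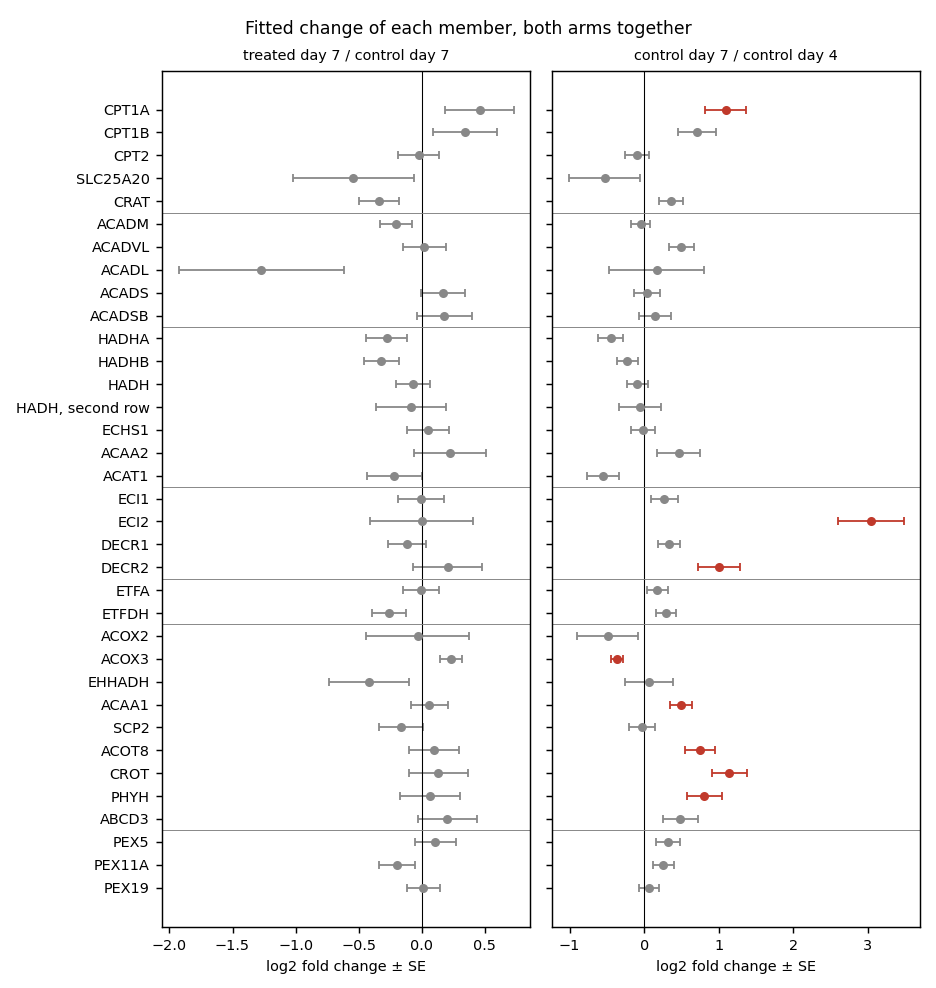
Fitted log2 fold change ± SE of each member row over both arms, treated day 7 over control day 7 on the left and control day 7 over control day 4 on the right, with members grouped by role and the calls in red. The right panel has 8 calls, from ACOX3 at -0.36 to ECI2 at 3.04, and the left panel has none.

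In the fit without animals as a term, the smallest p over both arms belonged to ACOX3, whose lower control day 7 level relative to control day 4 rests on the same control day 7 libraries. Its treated minus control day 7 difference was 0.23 ± 0.086 log2 units (SE; unadjusted p = 0.0177, adjusted p = 0.896 by edgeR), higher in 5 of 6 cows. In the P4 arm, where treated and control day 7 values did not overlap, the difference was 0.40 ± 0.12 (SE; unadjusted p = 0.00521, adjusted p = 1). In the 17-OHPC/P4 arm it was 0.06 ± 0.12 (SE; adjusted p = 0.990). The difference between these 2 responses was -0.34 ± 0.17 (SE; 95% interval -0.71 to 0.03; adjusted p = 1).

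CRAT was the 1 member lower on treated than on control day 7 in each of the 6 cows (2.86%, against 2.16% of all rows), and none was higher in each cow (0%, against 2.35%). CRAT had 37.4, 48.1 and 56.3 CPM in animals A, B and C on treated day 7, against 53.3, 69.2 and 72.4 CPM on control day 7. Animals D, E and F of the P4 arm had 38.5, 47.6 and 51.9 CPM on treated day 7, against 43.0, 56.4 and 60.8 CPM on control day 7. Each cow was lower on treated day 7, and the groups overlapped in both arms. The log2 difference was -0.34 ± 0.16 (SE; adjusted p = 0.896), and with the replicate block it was -0.34 ± 0.085 (SE; adjusted p = 0.707). The higher control day 7 level of CRAT relative to control day 4 rests on the same control day 7 libraries.

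HADHB had 52.8, 64.8 and 73.8 CPM in animals A, B and C on treated day 7, 85.1, 79.7 and 86.8 CPM on control day 7 and 101, 68.7 and 97.3 CPM on control day 4. The P4 arm, animals D, E and F, had 51.8, 78.3 and 55.7 CPM on treated day 7, 64.7, 68.4 and 88 CPM on control day 7 and 102, 98.2 and 84.8 CPM on control day 4. It was lower on treated than on control day 7 in 5 of 6 cows, with no overlap between the 2 groups in the 17-OHPC/P4 arm. The treated minus control day 7 difference was -0.32 ± 0.14 log2 units (SE; unadjusted p = 0.0358, adjusted p = 0.896). CPT1A was 0.46 ± 0.27 log2 units (SE) on treated relative to control day 7, higher in 5 of 6 cows, with animal D the exception. ACADL had the largest treatment difference over both arms, -1.27 ± 0.65 log2 units (SE; adjusted p = 0.896), at levels of 0.291 to 1.70 CPM on treated day 7 and 0.554 to 5.13 CPM on control day 7.

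By arm, 8 members were higher and 8 were lower in each of the 3 cows of the 17-OHPC/P4 arm on treated day 7 (22.9% each, against 19.4% and 20.8% of all rows). In the P4 arm 1 member was higher and 4 were lower in each cow (2.86% and 11.4%, against 9.96% and 9.40% of all rows). In the 17-OHPC/P4 arm the smallest unadjusted p-values belonged to ETFDH at -0.42 ± 0.19 and HADHA at -0.50 ± 0.23 log2 units (SE; adjusted p = 0.990 for both). CPT1A and ABCD3 had differences of 0.71 ± 0.38 and 0.60 ± 0.33 (SE) there. For ABCD3, animal A alone had 169.9 CPM on treated day 7 against 81.1 CPM on control day 7, and animals B and C differed by less. The test of a different treatment response between the arms called no member (0 of 35 by edgeR and by DESeq2, with 0% of all rows called and no member at an unadjusted p under 0.05).

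The treated libraries were also set against control day 4 of the same cows, as a description without a test. On treated day 7, 11 members were higher than on control day 4 in each of the 6 cows (31.4%, against 13.6% of all rows): ECI2, CROT, CPT1A, DECR2, ACOT8, ACAA1, ACADVL, ABCD3, CPT1B, ACADSB and PEX5. ECI2 was 2.09 to 4.14 log2 units higher in single cows. Lower in each of the 6 cows were SLC25A20, HADHA and HADHB (3 members, 8.57%, against 13.0% of all rows). The differences of HADHA in single cows were -1.41 to -0.38 log2 units, and its treated and day 4 values did not overlap.

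The direct comparison of the arms sets 100 mg 17-OHPC with 10 mg progesterone against 100 mg progesterone, so the doses of the agents differ as well as the agent. Compared with progesterone, 17-OHPC has an added hydroxyl group that carries a caproate ester. On treated day 7 no member passed between the 17-OHPC/P4 arm and the P4 arm by edgeR or DESeq2 (0 of 35 by each, where 0.0102% of all rows passed by edgeR), and 2 had an unadjusted p under 0.05 (5.71%, against 9.13% of all rows). The values of the arms did not overlap for 7 members higher in the 17-OHPC/P4 arm (20.0%, against 6.33% of all rows) and 1 lower member (2.86%, against 7.08%). Of the higher members, ACADM, SCP2, PEX11A and PEX19 were already higher without overlap on control day 4, before any injection. The other higher members overlapped between the arms on that day. The lower member, ACOX3, was already lower without overlap on control day 4. For ECI2 the difference was -0.31 ± 0.58 log2 units (SE; 95% interval -1.55 to 0.92), for CROT 0.11 ± 0.33 (-0.58 to 0.81) and for CPT1A -0.45 ± 0.38 (-1.27 to 0.37).

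Both arms were also compared before any injection. On control day 4, 2 members differed between the 17-OHPC/P4 arm and the P4 arm (5.71%, against 2.76% of all rows), 1 higher and 1 lower (2.86% each, against 1.30% and 1.46%). PEX19 (ENSBTAG00000007537), the membrane protein chaperone, had 91.8, 70.9 and 65.2 CPM in animals A, B and C and 45.1, 41.4 and 37.4 CPM in animals D, E and F, a log2 difference of 0.88 ± 0.19 (SE; adjusted p = 0.0339). ACOX3 was at 41.8, 39.6 and 35.9 CPM in animals A, B and C and at 60.9, 59.6 and 53.2 CPM in D, E and F, a difference of -0.57 ± 0.12 (SE; adjusted p = 0.0337). For both genes the arms did not overlap. The lower control day 7 level of ACOX3 in the P4 arm rests on the same control day 4 libraries of D, E and F. ACADM followed with 30.0, 31.3 and 28.6 CPM in animals A, B and C and 19.2, 18.8 and 17.8 CPM in D, E and F, at 0.69 ± 0.18 (SE; adjusted p = 0.0555); it passed with RLE size factors (adjusted p = 0.0495) and by DESeq2 (0.00269). No member kept its call throughout: without any 1 library the adjusted p of PEX19 was 0.0565 to 0.125 and that of ACOX3 was 0.0444 to 0.125, with the call kept only without control day 4 of animal A. Members without overlap numbered 9 higher and 2 lower in the 17-OHPC/P4 arm (25.7% and 5.71%, against 15.6% and 15.5% of all rows).

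PEX19 kept its order between the arms at the other times. It had 84.1, 70.1 and 68.1 CPM in animals A, B and C and 52.6, 33.9 and 53.9 CPM in D, E and F on treated day 7, and 82.1, 79.0 and 63.3 CPM in A, B and C and 46.4, 41.1 and 49.0 CPM in D, E and F on control day 7. The arms overlapped at neither time. Animal F moved from the lowest PEX19 value of its arm on control day 4, 37.4 CPM, to the highest on both day 7 samples. The log2 difference was 0.66 ± 0.19 (SE; adjusted p = 0.301) on treated day 7 and 0.72 ± 0.19 (SE; adjusted p = 0.202) on control day 7. On control day 7 no member passed by edgeR (0 of 35, against 0.00509% of all rows), DESeq2 called PEX19, and 3 members had an unadjusted p under 0.05 (8.57%, against 10.6% of all rows). At that time 1 member was higher and 2 were lower in the 17-OHPC/P4 arm without overlap (2.86% and 5.71%, against 7.10% and 6.80% of all rows). ACOX3 differed by -0.41 ± 0.12 (SE; adjusted p = 0.328) on treated day 7 and by -0.07 ± 0.12 (SE; adjusted p = 0.884) on control day 7. CPT1A and CPT1B had log2 differences of -0.94 ± 0.39 and -0.92 ± 0.36 (SE) on control day 7, which did not pass. As the arms are different cows, arm and animal cannot be told apart.

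**Figure D5:**
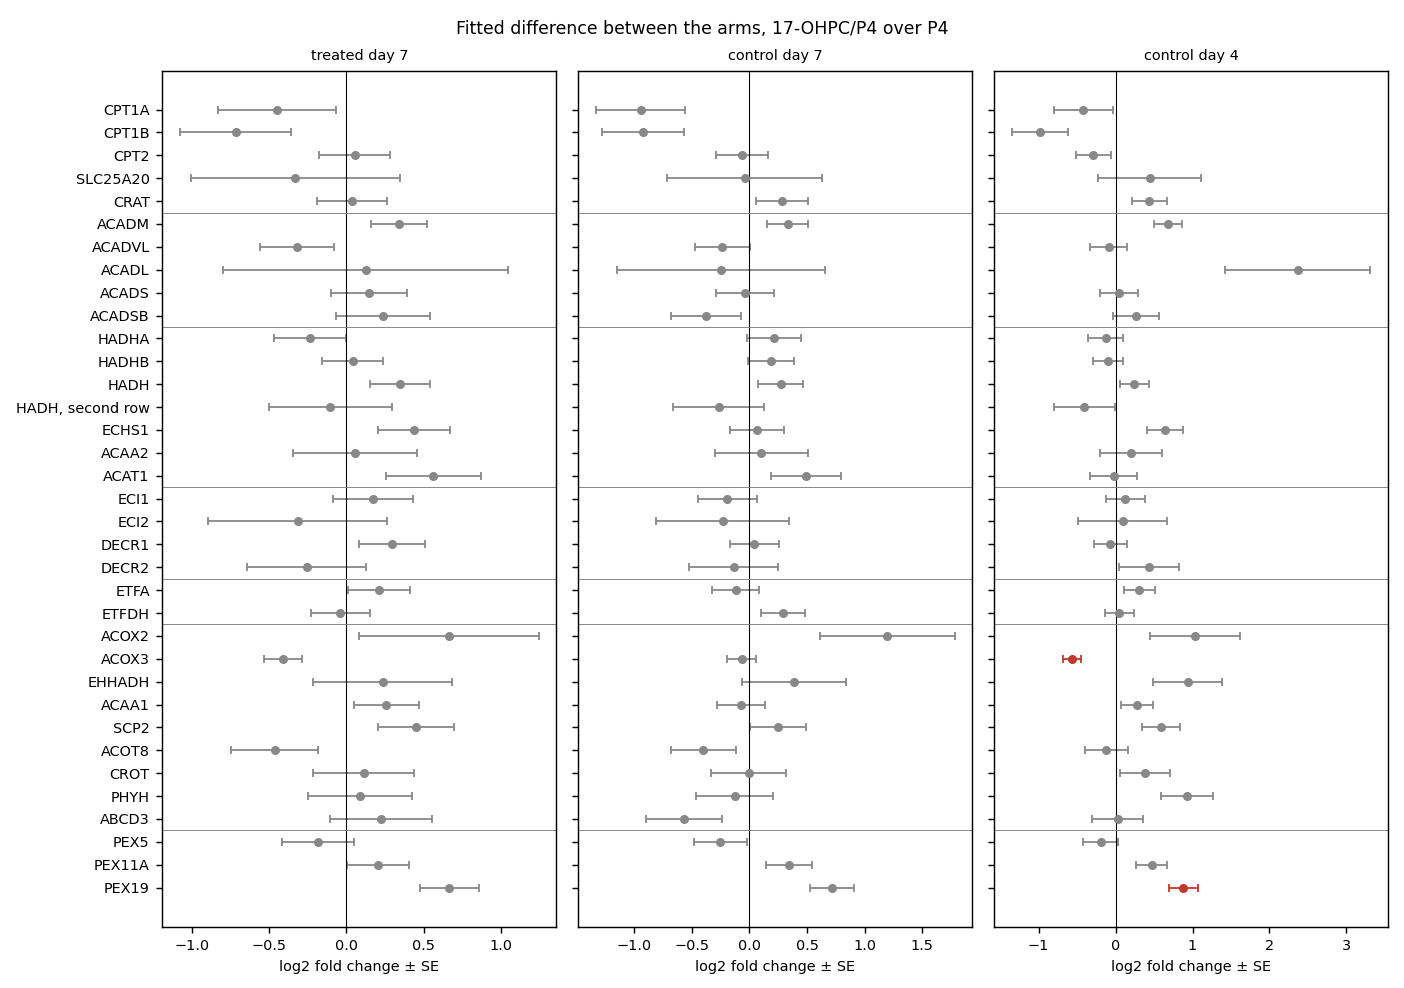
Fitted log2 difference ± SE between the arms, 17-OHPC/P4 over P4, for each member row on treated day 7, control day 7 and control day 4. Calls are red: PEX19 at 0.88 and ACOX3 at -0.57 on control day 4, and none on either day 7. The horizontal scales of the panels differ.

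Related genes that are not members were counted in the comparison of control day 7 with control day 4 over both arms. Of 25 tested rows of other peroxisomal genes, 4 rose and 2 fell (16.0% and 8.0%, against 6.27% and 4.28% of all rows). Among those that rose were HSD17B4, the peroxisomal bifunctional protein, by 1.83 ± 0.35 log2 units (SE; adjusted p = 0.00658), PECR, a reductase of chain elongation, by 1.14 ± 0.27, and IDH1, a cytosolic and peroxisomal source of NADPH, by 1.06 ± 0.26. ABCD4 and PRDX5, an antioxidant peroxiredoxin, had log2 changes of -1.11 ± 0.20 and -0.69 ± 0.15 (SE). None of the 14 genes of peroxisome biogenesis passed, with a median log2 difference of 0.30.

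Of 27 tested rows of other mitochondrial oxidation genes, 2 rose and 2 fell (7.41% each, against 6.27% and 4.28% of all rows), shares near those of all rows. Those that rose were MCEE by 2.02 ± 0.31 and PCCA by 1.25 ± 0.33 log2 units (SE), both of the route from propionyl-CoA to succinyl-CoA. Those that fell were ACAD9, an assembly factor of respiratory complex I, at -0.52 ± 0.14, and ACACB, whose product malonyl-CoA inhibits CPT1, at -1.10 ± 0.28 (SE) on 1 of its 2 rows. The second ACACB row did not pass, at -1.06 ± 0.97 (SE; adjusted p = 0.536). Of 5 tested ketone body genes, BDH1, the hydroxybutyrate dehydrogenase, rose by 2.35 ± 0.66 log2 units (SE; 20.0% of the list, against 6.27% of all rows). Among 22 tested regulators, 5 rose (22.7%, against 6.27% of all rows): PPARGC1A, a coactivator of mitochondrial genes, by 2.29 ± 0.52, the fatty acid receptor PPARA by 1.01 ± 0.27, PPARD by 0.79 ± 0.23, their partner RXRA by 0.62 ± 0.18 and PRKAA1, a subunit of the energy sensor AMPK, by 0.54 ± 0.12 log2 units (SE). NR1I3, a xenobiotic receptor, was the 1 regulator that fell (4.55%, against 4.28% of all rows), with a log2 change of -1.15 ± 0.32 (SE). In the P4 arm alone NR1I3 changed by -2.62 ± 0.48 and RXRA by 1.10 ± 0.25 log2 units (SE). RXRA was also 1.32 ± 0.25 log2 units (SE) lower in the P4 arm than in the other arm on control day 4. For NR1I3 and RXRA the values over both arms therefore do not show a change shared by the arms. Of 26 rows of general mitochondrial genes, VDAC2 rose by 1.37 ± 0.32 (SE; 3.85% of the list), the median of the list being 0.19. None of the 4 mitochondrially encoded genes with a row passed, and their sum was 36800 to 63000 CPM on control day 7, against 28000 to 43800 CPM on control day 4. In the comparison of treated with control day 7 over both arms, 0 genes of these lists passed.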

How the data were processed

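RNA from 18 endometrial cytobrush samples (6 cows, 3 samples each) was sequenced as poly(A) libraries, per the labels. Gene counts were deposited by the authors as 1 table of raw counts; cutadapt, FastQC, STAR, featureCounts and DESeq2 are named in the submitters' processing notes, without versions. For genome build, annotation, strand setting and pair counting, the sources used here give nothing. The deposited counts were not rescaled before testing.

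Rows were filtered with edgeR's default rule (19638 of 38001 kept), scaled by TMM and tested with edgeR 4.0.16 in R 4.3.3 (limma 3.58.1) by the quasi-likelihood test in 1 fit over all 6 groups, with p-values adjusted by Benjamini-Hochberg over all rows and 11 comparisons made. A call is an adjusted p under 0.05. CPM values are TMM-scaled, intervals are 95% intervals of the fitted log2 fold change, and per-animal changes are differences of log2 CPM with a prior count of 2. Common biological variation was 51.4%. Total counts of 29347255 to 40733544 limit precision little for members above a few CPM. The test was run on simulated data with independent libraries, no cow effect and a smaller biological variation than here. That run cannot show how the test behaves on these paired samples.

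Column letters name the same cow in each group, per the labels, so the samples are paired. Deviations from the group means correlated at -0.0712 to 0.718 (median 0.375) between samples of 1 cow and at -0.629 to 0.276 (median -0.144) between cows. By arm, the values within 1 cow were 0.393 to 0.718 for animals A to C and -0.0712 to 0.357 for animals D to F. Deviations within a group sum to 0, so the values between cows are no independent contrast. Alternatives were DESeq2 1.42.0, RLE size factors, no filter on low counts, the animal as a replicate block, each library left out, and, chosen after seeing the data, animals C and F left out.

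The members and the gene lists were chosen with earlier results of these data known. Named with full values were members called in any comparison, and beyond those the 3 smallest p-values in each direction; SLC25A20, ACADVL, DECR1, ECI1, EHHADH, SCP2, ACAA2, ACADS, PEX5 and PEX11A were named after their values were seen. Gene overlaps were read from the RefSeq table of assembly ARS-UCD2.0 by name: CRAT overlaps PTPA, PEX11A overlaps PLIN1, ECHS1 overlaps SORCS3 and ACADVL overlaps MIR324, besides those named in the results, and SLC25A20 and ACADSB overlap uncharacterised genes. The values of 1 gene of these lists are not reported here.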

Additional observations from a re-analysis of the deposited data

Results flagged for a closer look

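In 7 of 70 groups of 6 libraries (each member row on control day 7 and on control day 4, with both arms together), 1 library lay farther from its nearest neighbour than Dixon's 95% limit allows; chance gives about 1 in 20 such groups. On control day 7, ACOX3 was at 32.4 CPM in animal A, against 36.5 to 38.9 CPM in the other cows. ABCD3 was at 156 CPM in animal D on control day 7, against 62.5 to 84.0 CPM in the others, and ETFA in the same library was at 65.2 CPM, against 44.9 to 51.4 CPM. ECI1 was at 44.7 CPM in animal E on control day 7, against 29.7 to 32.9 CPM in the others.

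The other 3 values came from 1 library, control day 4 of animal A. There ACADSB was at 142 CPM, against 65.4 to 89.2 CPM in the other cows. ACAA1 was at 103 CPM in that library, against 57.0 to 69.3 CPM, and ECHS1 was at 151 CPM, against 65.7 to 96.2 CPM. Without it, PHYH lost its call between control day 7 and control day 4 over both arms.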

How the results depend on the processing

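Over both arms, the comparison of control day 7 with control day 4 called 8 members, 10 by DESeq2, 8 with RLE size factors, 7 without a filter, 11 with the replicate block, 2 to 11 with 1 library left out (2 without control day 7 of animal D and 11 without control day 7 of animal F), 4 without animal C and 9 without animal F. In the 17-OHPC/P4 arm, 0 members were called, 1 by DESeq2 and 0 to 1 with 1 library left out. In the P4 arm, 5 were called, 8 by DESeq2, 9 with the replicate block, 0 to 8 with 1 library left out and 2 without animal F. Between the arms, control day 7 gave 0 calls and 1 by DESeq2; control day 4 gave 2 calls, 4 by DESeq2, 3 with RLE size factors, 1 without a filter, 0 to 1 with 1 library left out, 0 without animal C and 0 without animal F. Where an animal or library was left out, the smaller number of samples is part of the change; beyond that the cause was not tested. The share of all rows called is not given for these settings, so a change in the member count is no result about the members alone. No call of a single member was reversed under the settings run. Of 15 calls of single members, DESeq2 and RLE size factors each kept 15, the fit without a filter 13, and the replicate block kept all 13 that it could test, since cows are not shared between arms. The comparisons of treated with control day 7 gave 0 called members under DESeq2, and none with the replicate block. Precision is limited by 3 cows an arm and a biological variation of 51.4%.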

Other observations

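Markers of other cells in the brushings were measured beside the members. None passed between treated and control day 7 over both arms, where 0% of all rows passed. Markers of 1 cell type can move together in a library, so the counts of their directions below are not independent observations. The 8 macrophage markers all had lower fitted values on treated day 7 (median log2 difference -0.97), with sums of 31.3 to 175 CPM on treated day 7 and 97.8 to 377 CPM on control day 7. Of the 10 stromal markers, 9 had lower fitted values (median -0.60). The 6 smooth muscle markers all had higher fitted values on treated day 7 (median 0.41), and those of 8 endothelial markers had a median of -0.37. The smooth muscle sums did not show a uniform rise. In the P4 arm they were 42.1, 48.3 and 243 CPM on treated day 7, against 37.2, 49.8 and 80.2 CPM on control day 7. In the other arm they were 47.5, 48.3 and 196 CPM on treated day 7, against 40.3, 56.1 and 301 CPM on control day 7. Neutrophil markers summed to 0.704 to 44.9 CPM on treated day 7, 16.4 to 142 CPM on control day 7 and 2.24 to 51.5 CPM on control day 4.

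Before treatment, on control day 4, RXRA and TIMM23, a subunit of the mitochondrial import channel, were higher in the 17-OHPC/P4 arm than in the P4 arm, by 1.32 and 0.70 log2 units (edgeR's quasi-likelihood test, adjusted p under 0.05).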
